A study of Mus musculus with 6 samples.

Results

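Padi2, Lama3, Entpd3, Krt7, Trpm5, Msmp, Cldn19, Crb2 and Zfp648 are 9 low-abundance genes of mouse chondrocytes that stood among the lowest ratios of the study's only comparison. They were chosen by that ratio, the level with M-LPS-EV over the level with M-EV, among genes with a mean of at least 1 CPM (library counts scaled to a common total). The 9 genes were taken from 12976 genes at or above that level and from 55487 genes in all. Because the ratio chose them, their ratios are given as a description, with no test.

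The libraries are stranded mRNA libraries of cultured chondrocytes, the cells that make and keep cartilage matrix, from knee cartilage of mice labelled C57B/6; the labels give no age. The M-EV group (3 libraries) received extracellular vesicles, small membrane particles shed by cells, from macrophages without stimulation. The M-LPS-EV group (3 libraries) received vesicles from macrophages that had been stimulated with LPS, a component of the bacterial cell wall. Both groups received 10 µg/ml of vesicle protein for 24 h, and cells without vesicles were not analysed here, so every value is a difference between the vesicle types. The series title gives the question as pyroptosis, a lytic form of cell death, and cartilage breakdown in osteoarthritis. The expected counts of a library summed to between 20239626 and 25712667. The labels do not say that libraries of a group came from separate cultures or animals, so an SD or p-value covers the spread of these libraries alone, which may be technical.

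The genes have unlike roles and form no single pathway. Several belong to families best known from epithelia, tissues whose cells are joined into sheets with an apical and a basal face. Laminins anchor such sheets to the basement membrane, keratins are their intermediate filaments, claudins seal the gaps between cells, and Crumbs proteins mark the apical side. Cartilage has none of these sheets: its cells sit singly in matrix. The other genes encode an enzyme that converts arginine in proteins to citrulline (Padi2), a cell surface enzyme that breaks down extracellular nucleotides (Entpd3), a cation channel of taste cells (Trpm5), a small secreted protein (Msmp) and a zinc finger protein (Zfp648).

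RefSeq's promoter windows on GRCm38.p6 run from 250 bases before to 50 after a gene's start, and windows of 8 of the genes were read. Sequence is shown for the 3 genes with the lowest ratios among these 8, as the stretch of each window before the first annotated untranslated base, 5′ to 3′ along the gene. Capitals mark the GC box GGGCGG, the CCAAT box CCAAT and the AP-1 site TGANTCA on either strand. The stretches are chr4:140906110-140906343 for Padi2, chr15:101412153-101412401 for Krt7 and chr9:120539568-120539817 for Entpd3, all on the plus strand.
Padi2: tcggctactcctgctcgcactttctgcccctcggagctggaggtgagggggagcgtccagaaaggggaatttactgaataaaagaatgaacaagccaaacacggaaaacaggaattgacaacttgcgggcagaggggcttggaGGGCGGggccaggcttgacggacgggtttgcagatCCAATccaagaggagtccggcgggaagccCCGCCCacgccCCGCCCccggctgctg
Krt7: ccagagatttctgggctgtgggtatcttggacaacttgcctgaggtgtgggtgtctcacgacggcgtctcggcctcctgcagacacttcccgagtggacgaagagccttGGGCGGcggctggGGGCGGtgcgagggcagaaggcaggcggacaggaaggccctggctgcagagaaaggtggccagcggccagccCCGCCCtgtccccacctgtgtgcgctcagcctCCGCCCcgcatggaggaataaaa
Entpd3: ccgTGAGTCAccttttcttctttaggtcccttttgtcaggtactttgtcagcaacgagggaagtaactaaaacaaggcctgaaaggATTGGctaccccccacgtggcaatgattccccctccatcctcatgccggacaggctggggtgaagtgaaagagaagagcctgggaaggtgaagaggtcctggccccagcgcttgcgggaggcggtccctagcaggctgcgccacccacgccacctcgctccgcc
The whole windows held 22, 21 and 15 CpG dinucleotides in Padi2, Krt7 and Entpd3, against a median of 7 over the windows of 27025 genes. Those of Msmp, Cldn19 and Zfp648 held 4 each. The GC box was found in 4 of the 8 windows (Padi2, Krt7, Cldn19 and Crb2), against 35.9% of all windows. The Padi2 window held 3 GC boxes and the Krt7 window 4. CCAAT was found in 3 (Padi2, Entpd3 and Zfp648), against 37.9%, and the AP-1 site in 1 (Entpd3), against 7.93%. The E-box CANNTG, which reads the same way on both strands, was found in 4 of the 8, against 72.1%, and the ETS core GGAA in all 8, against 95.9%. The TATA box TATAAA, the SOX core ACAAT and the cAMP response element TGACGTCA were found in none of the 8, against 14.2%, 31.6% and 1.88% of all windows. No marked motif was found in all 3 sequences shown. A match of letters is a description and not a site of binding.

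All 9 genes were lower in every M-LPS-EV library than in any M-EV library. Of all 14604 tested genes 20.6% were separated in that direction, and 15.2% were called lower at an adjusted p under 0.05 in edgeR's quasi-likelihood test (16.4% higher, 31.6% in either direction); since the choice of the genes used this contrast, nothing is read from their own count. Their ratios of mean CPM ran from 0.214 to 0.419, with a median of 0.333. The median fitted log2 fold change was -1.59, with a range from -2.22 to -1.26, beside 0.003 over all tested genes. Their summed CPM was 60.3, 61.8 and 59.5 in the M-EV libraries and 18.3, 18.5 and 21.8 in the M-LPS-EV libraries. In bulk RNA of this kind, fewer cells of a type and less RNA per cell cannot be told apart.

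**Figure D1:**
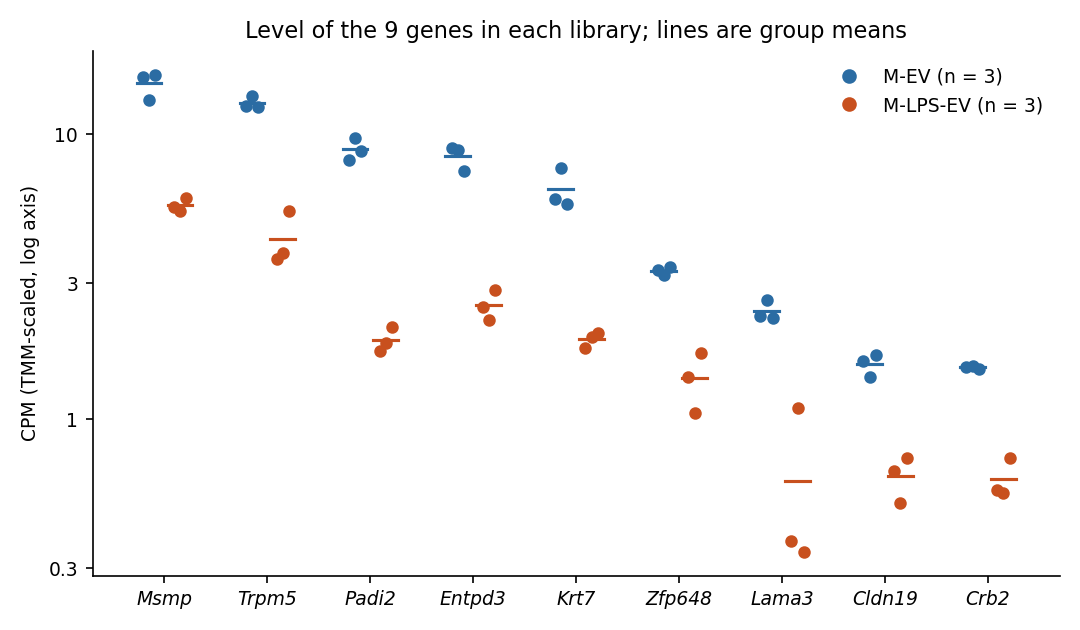
Level of each of the 9 genes in each of the 6 libraries, in CPM after TMM scaling on a log axis; points are libraries and lines are group means (n = 3 per group). In each gene the 3 M-LPS-EV points lie below the 3 M-EV points, and Lama3 has the widest spread, from 0.343 to 1.10 CPM with M-LPS-EV; CPM are not per length, so heights compare libraries within a gene and not genes.

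Padi2 (peptidylarginine deiminase 2, ENSMUSG00000028927) had the lowest ratio of all 12976 genes. It lies on chromosome 4 from 140906344 to 140952586 on the plus strand in mm10. It had 207, 214 and 198 counts in the M-EV libraries and 37, 44 and 43 in the M-LPS-EV libraries. The 3 libraries of each group were close together and the groups were far apart. The mean went from 8.87 ± 0.795 to 1.90 ± 0.188 CPM (SD, n = 3 per group), which is 4.67-fold lower, and the fitted log2 fold change was -2.22 (SE 0.14). The depth-scaled ratio of summed counts was 0.215 (exact conditional 95% interval 0.176 to 0.261, which like those that follow covers counting error only).

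Krt7, a type II keratin of simple and glandular epithelia (ENSMUSG00000023039, chromosome 15, 101411043 to 101430313, plus strand), had 151, 168 and 129 counts with M-EV and 38, 46 and 41 with M-LPS-EV. The M-LPS-EV libraries lay close together and far below the lowest M-EV library. Its mean went from 6.42 ± 1.04 to 1.91 ± 0.116 CPM, with a count ratio of 0.299 (0.243 to 0.365) and a log2 fold change of -1.74 (SE 0.16). Zfp648, a zinc finger protein (ENSMUSG00000066797, chromosome 1, 154201187 to 154205689, plus strand), had 85, 71 and 77 counts with M-EV and 30, 25 and 35 with M-LPS-EV. It had the highest ratio of the 9 genes. Its mean went from 3.32 ± 0.0974 to 1.39 ± 0.329 CPM, with a count ratio of 0.414 (0.321 to 0.530) and a log2 fold change of -1.26 (SE 0.20).

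Of the genes of extracellular and secreted proteins, Lama3, the alpha-3 chain of laminin-332 (ENSMUSG00000024421, chromosome 18, 12333819 to 12583013, plus strand), had 59, 58 and 51 counts with M-EV and 8, 26 and 7 with M-LPS-EV. One M-LPS-EV library, replicate 2, thus stood apart from the other two, though below every M-EV library. The mean went from 2.40 ± 0.199 to 0.606 ± 0.427 CPM, with a count ratio of 0.262 (0.181 to 0.370) and a log2 fold change of -1.94 (SE 0.31). Without that library the log2 fold change was -2.72. Msmp, which encodes a small secreted cysteine-rich protein (ENSMUSG00000078719, chromosome 4, 43583216 to 43584494, minus strand), had 405, 292 and 366 counts with M-EV and 119, 128 and 122 with M-LPS-EV. These counts are rounded estimates, with reads divided between genes as given below. The M-LPS-EV libraries of Msmp were nearly level, and M-EV replicate 2 was the lowest of its group. Its mean went from 15.1 ± 1.63 to 5.66 ± 0.290 CPM, with a count ratio of 0.372 (0.330 to 0.419) and a log2 fold change of -1.42 (SE 0.10).

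Entpd3, an ectonucleotidase that removes phosphates from extracellular ATP and ADP (ENSMUSG00000041608, chromosome 9, 120539818 to 120568327, plus strand), had 229, 195 and 168 counts with M-EV and 53, 53 and 58 with M-LPS-EV. The M-LPS-EV libraries again lay within a few counts of each other. The mean went from 8.43 ± 0.850 to 2.52 ± 0.302 CPM, with a count ratio of 0.297 (0.248 to 0.354) and a log2 fold change of -1.75 (SE 0.14). Trpm5, a calcium-activated cation channel of taste and tuft cells (ENSMUSG00000009246, chromosome 7, 143069153 to 143094642, minus strand), had 322, 300 and 282 counts with M-EV and 78, 91 and 110 with M-LPS-EV. Here M-LPS-EV replicate 3 was the highest of its group after scaling, at 5.39 CPM against 3.66 and 3.85. The mean went from 12.9 ± 0.602 to 4.30 ± 0.949 CPM, with a count ratio of 0.331 (0.288 to 0.379) and a log2 fold change of -1.59 (SE 0.11).

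Cldn19, a tight junction claudin known for magnesium handling in the kidney (ENSMUSG00000066058, chromosome 4, 119255414 to 119262438, plus strand), and Crb2, a Crumbs polarity protein (ENSMUSG00000035403, chromosome 2, 37776249 to 37799103, plus strand), were the least abundant of the 9 by counts. Cldn19 had 41, 31 and 38 counts with M-EV and 14, 12 and 15 with M-LPS-EV. Its mean went from 1.57 ± 0.144 to 0.633 ± 0.116 CPM, with a count ratio of 0.400 (0.272 to 0.577) and a log2 fold change of -1.31 (SE 0.28). Crb2 had 39, 34 and 34 counts with M-EV and 12, 13 and 15 with M-LPS-EV. In both genes the groups did not overlap, though the counting intervals of their ratios were the widest in relative terms. The mean of Crb2 went from 1.53 ± 0.0176 to 0.616 ± 0.103 CPM, with a count ratio of 0.401 (0.271 to 0.581) and a log2 fold change of -1.31 (SE 0.28).

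The genes held ranks 1, 3, 4, 5, 6, 10, 12, 13 and 15 of the ratio. The ranks between them went to Gm14288, Gli1, Sfrp5, Gm37401, C130074G19Rik and Sfrp4, so the 9 genes are a part of the lowest ratios and not all of them. At the upper edge Zfp648 had a ratio of 0.419, and the next genes were Ihh (0.426), Gm47484 (0.427) and Tspan32 (0.431). At the edge set by level, Crb2 (mean over all libraries 1.07 CPM) and Cldn19 (1.10 CPM) were just inside, and Ddn (0.916 CPM, ratio 0.385) was just outside. Ddn was 1 of 30 tested genes under 1 CPM with a ratio at or below that of Zfp648.

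**Figure D2:**
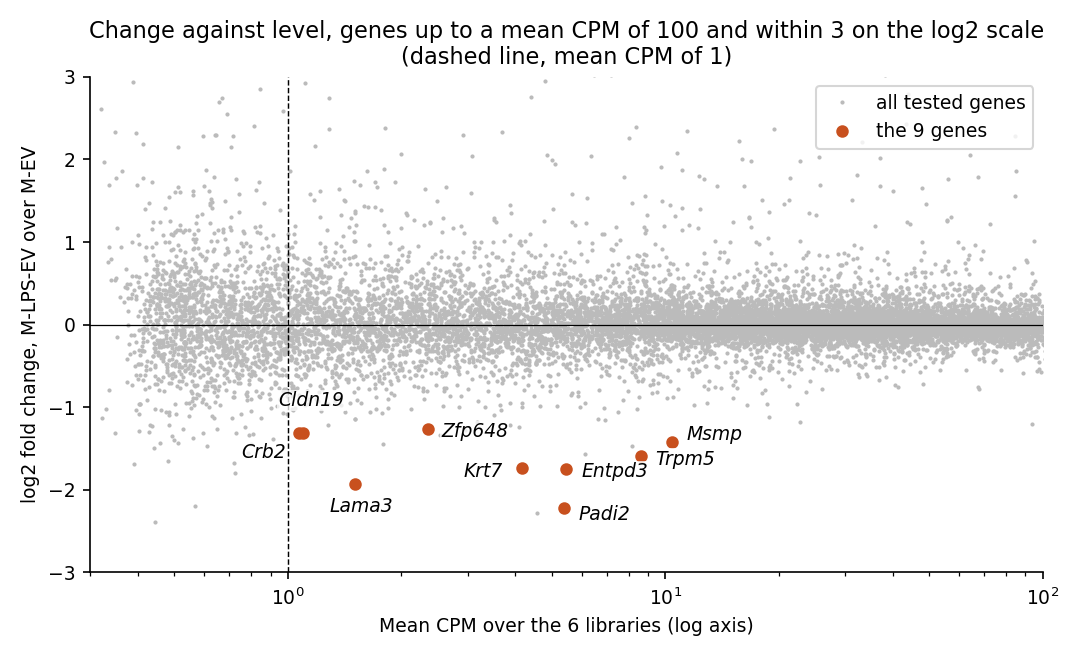
Fitted log2 fold change of M-LPS-EV over M-EV (vertical axis) against mean CPM over the 6 libraries (horizontal log axis); grey points are tested genes, orange points the 9 genes, and genes beyond the axes are not drawn. The 9 genes lie between -2.22 and -1.26 at mean levels from 1.07 to 10.4 CPM, to the right of the dashed line at 1 CPM that the choice used.

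In TPM, which are scaled to transcript length, Msmp had the highest level by far, at 48.9 ± 5.42 TPM with M-EV and 18.1 ± 0.989 with M-LPS-EV. Part of its reads was divided by estimate with another gene, as given below, so this level is uncertain. With M-EV Msmp was followed by Trpm5 (7.36 ± 0.726 TPM) and Krt7 (7.04 ± 1.48), which did not differ beyond their spread. The TPM of Krt7 lay mostly on short transcripts with few counts, as given below, so its place in this order is uncertain. Entpd3 followed at 4.72 ± 0.458 TPM. Zfp648 (3.44 ± 0.111) and Padi2 (3.39 ± 0.291) were again within their spread of each other. Cldn19 stood at 1.07 ± 0.145 TPM, and Lama3 (0.530 ± 0.0693) and Crb2 (0.500 ± 0.104) were the lowest and overlapped. With M-LPS-EV, Trpm5 (2.55 ± 0.620 TPM) and Krt7 (2.20 ± 0.533) were still next to each other, and so were Zfp648 (1.43 ± 0.340) and Entpd3 (1.41 ± 0.188). Padi2 stood at 0.823 ± 0.137 TPM, below Zfp648. Cldn19 (0.497 ± 0.0862), Crb2 (0.210 ± 0.0954) and Lama3 (0.130 ± 0.104) came last, the latter pair within their spread.

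The ratio of mean TPM was close to the ratio of mean CPM in most genes. It was 0.243 against 0.214 in Padi2, 0.463 against 0.404 in Cldn19, and 0.245 against 0.252 in Lama3. In Padi2, 0.55 expected counts on the 344-base transcript ENSMUST00000130958 gave 0.32 of the 0.97 TPM of M-LPS-EV replicate 1. The M-LPS-EV mean and SD of Padi2 in TPM are uncertain to that extent. On the log2(TPM + 1) scale, which compresses low levels, the change ranged from -1.38 in Msmp to -0.31 in Crb2, and 5 of the 9 genes were among the 15 lowest changes at a mean of at least 1 CPM.

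The reads of a gene need not come from its full-length transcript. Padi2, Entpd3 and Crb2 had 97.3% or more of their M-EV counts on 1 protein-coding transcript, and Msmp and Zfp648 have 1 annotated transcript each. Trpm5 was the exception. Transcripts annotated as retained introns held 99.2%, 97.5% and 95.4% of its counts in the M-EV libraries and 96.7%, 80.9% and 95.9% in the M-LPS-EV libraries, whereas they held 2.79% to 2.88% of all counts of a library. Most lay on ENSMUST00000150589, with 714.17 expected counts over the M-EV libraries and 202.87 over the M-LPS-EV libraries. The full-length protein-coding transcript ENSMUST00000009390 was estimated at 6.68 counts, all in M-EV replicate 3, and 13.75 counts, all in M-LPS-EV replicate 2. Transcripts that start well inside the full-length one held all counts of 4 libraries and 97.6% and 84.9% in the other two. The Trpm5 values above are thus mainly of transcripts annotated as retaining introns, and the promoter window of this gene lies at the full-length start, where few counts were assigned.

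Krt7 also had mixed transcripts. Its full-length ENSMUST00000068904 held 56.1% of the M-EV counts and 46.5% of the M-LPS-EV counts, and the retained-intron ENSMUST00000131069 held 26.2% and 34.8%. By library the retained-intron share was 18.9%, 35.3% and 23.0% with M-EV and 11.4%, 16.3% and 77.5% with M-LPS-EV, so M-LPS-EV replicate 3 stood apart. That library had 41 counts in all, and the division of so few reads between overlapping transcripts is an estimate. Transcripts that start before the full-length one held 11.2% to 22.1% of the counts in the M-EV libraries and 12.1% to 24.5% in the M-LPS-EV libraries, and the ranges overlapped. The promoter window of Krt7 lies at the full-length start, so these transcripts begin before that window. The shorter Lama3 transcript ENSMUST00000188815 held 48.9%, 31.4% and 17.7% of the counts with M-EV and 36.8%, 43.5% and 1.86% with M-LPS-EV. The shorter Cldn19 transcript ENSMUST00000084309 held 8.39%, 14.0% and 14.7% with M-EV and 23.6%, 26.3% and 6.67% with M-LPS-EV. In Lama3 and in Cldn19 the groups overlapped in this share.

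**Figure D3:**
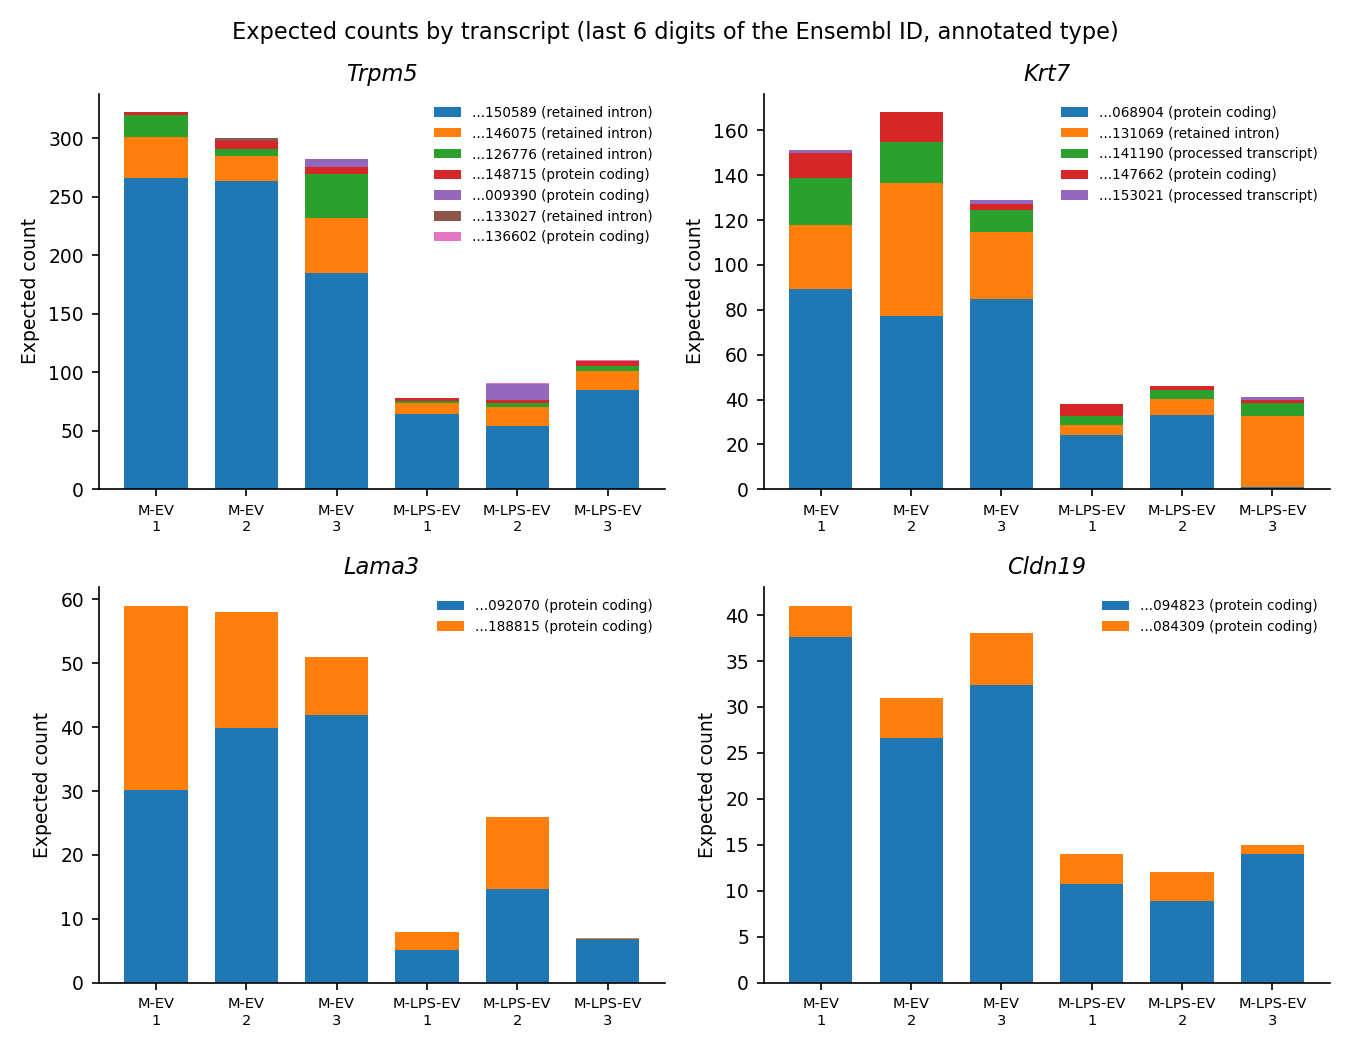
Expected counts of Trpm5, Krt7, Lama3 and Cldn19 in each library, stacked by annotated transcript; the vertical axes start at 0 and differ between panels. In Trpm5 the retained-intron transcripts fill nearly the whole of each bar, and in Krt7 the retained-intron part fills 77.5% of the bar of M-LPS-EV replicate 3.

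Most overlaps with other genes were short, with Msmp as the exception. All 743 exonic bases of Msmp lie within exons of Rgp1, a gene on the opposite strand, and whether the counting used strand is not given in the sources used here. Rgp1, which acts in membrane traffic at the Golgi, had 6480 counts with M-EV and 5588 with M-LPS-EV, against 1063 and 369 of Msmp. Its log2 fold change was -0.11 (SE 0.03, edgeR adjusted p = 0.012), a call whose sign turned to 0.06 with effective lengths as an offset and to 0.04 on the TPM scale. Msmp has 1 annotated transcript, yet its expected counts were not whole: 405.33, 291.51 and 365.98 with M-EV and 119.04, 127.59 and 121.68 with M-LPS-EV. Zfp648, also with 1 transcript, had whole expected counts in every library. Part of the Msmp reads was thus divided by estimate with another gene, and which one was not tested. If reads were counted without strand, reads of Msmp and Rgp1 cannot be told apart, and the values of Msmp are uncertain to that extent. Trpm5 shares 220 exonic bases with Tssc4 on the opposite strand, of its 6398, and Crb2 shares 113 of 6698 with Dennd1a. Neither partner was called (edgeR adjusted p = 0.67 and 0.41). The antisense genes that overlap Padi2, Lama3, Krt7 and Cldn19 share 149, 197, 77 and 90 exonic bases with them, and held between 0 and 4 counts per group.

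Relatives of the 9 genes, which the choice did not use, moved in both directions. Over 8 lists of family members, partners and pathway genes (113 genes), 60 could be tested: 18 were lower with M-LPS-EV, 15 higher and 27 not called. The share called was 55%, beside 31.6% of all tested genes, and the median log2 fold change was -0.03, beside 0.003. The lists were drawn up with earlier results of these data known, so these shares are a description and no independent comparison. Small changes are also easier to call in genes of many counts, such as Nid2 (66666 counts with M-EV, log2 fold change -0.17). With an offset for effective transcript length 10 relatives were called lower and 9 higher. Only 1 of the 60, Padi1, had a log2 fold change as low as that of Zfp648, the least lowered of the 9, a size reached by 43 tested genes in all.

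Among deiminases, Padi1, which acts in the epidermis and lies beside Padi2, was the only relative with enough counts to test. It fell from 0.733 ± 0.152 to 0.227 ± 0.0790 CPM, with 51 and 15 counts in the groups (edgeR log2 fold change -1.65 with SE 0.42, adjusted p = 0.0034). On the log2(TPM + 1) scale it was not called (limma adjusted p = 0.061). Padi3 and Padi4 had 2 counts each with M-EV, and 0 and 2 with M-LPS-EV, at the limit of detection. Padi2 had the highest TPM of the deiminases in both groups, at 3.39 and 0.823 TPM against 0.363 and 0.110 TPM of Padi1.

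Of 19 tested genes of laminins and epithelial anchorage 6 fell and 7 rose. Lamb3, the gene of a chain that joins Lama3 in laminin-332, fell from 26.6 ± 1.25 to 23.5 ± 2.40 CPM (edgeR log2 fold change -0.17 with SE 0.06, adjusted p = 0.038), which lost its call with the length offset, on the TPM scale, with DESeq2 and when any single library but M-EV replicate 1 or M-LPS-EV replicate 1 was left out. The laminin chain Lama1 rose from 6.03 ± 0.857 to 10.7 ± 0.188 CPM (0.84, SE 0.10). The laminin receptor subunit Itga6 (0.26), the cytoskeletal linker Plec (0.27) and the basement membrane protein Nid1 (0.23) rose too. Nid2 (-0.17) and the laminin chain Lama5 (-0.24) fell. On the TPM scale the Lama1 call ended (limma adjusted p = 0.068), and so did that of Lama5 (0.14), which ended also with the length offset (edgeR adjusted p = 0.084).

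Of 12 tested genes of extracellular nucleotide metabolism 7 fell and 3 rose. Entpd1 (CD39), which like Entpd3 acts at the cell surface, fell from 1.47 ± 0.375 to 0.745 ± 0.248 CPM (edgeR log2 fold change -0.98 with SE 0.30, adjusted p = 0.013). That call ended when M-EV replicate 1, M-EV replicate 3 or M-LPS-EV replicate 3 was left out (edgeR adjusted p = 0.067, 0.067 and 0.083). The family members Entpd6 (-0.39) and Entpd4 (-0.23), which act mainly in internal membranes, fell too, as did the phosphatase Alpl (-0.33) and Nt5e (-0.17), the enzyme that makes adenosine from AMP. Entpd2 had 14 and 18 counts per group and was not tested. Adora1, an adenosine receptor, rose from 0.253 ± 0.142 to 4.10 ± 0.343 CPM (edgeR log2 fold change 3.97 with SE 0.28, adjusted p = 2.3e-11), the largest change of any tested relative. Enpp2, which makes lysophosphatidic acid, rose by 0.32 (SE 0.03).

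Of 6 tested keratins none fell and 2 rose. Krt16, a keratin of stressed epidermis, rose from 0.740 ± 0.233 to 2.37 ± 0.347 CPM (edgeR log2 fold change 1.69 with SE 0.26, adjusted p = 1.5e-05), and Krt10 had 0.57 (SE 0.20, adjusted p = 0.029), which lost its call with the length offset, with DESeq2 and when M-EV replicate 1, M-EV replicate 3, M-LPS-EV replicate 2 or M-LPS-EV replicate 3 was left out. The simple epithelial keratins Krt18 (edgeR log2 fold change -0.60 with SE 0.28, adjusted p = 0.11) and Krt19 (-0.25, SE 0.38, adjusted p = 0.68) were not called. Krt8, the usual partner of Krt18, had 26 and 15 counts. Krt5, named after its values were seen, had 19 counts with M-EV and 4 with M-LPS-EV, a ratio of 0.226 (0.056 to 0.679), and was too low to test. Other untested relatives, also named after their values were seen, went both ways. Their ratio was 5.57 (2.11 to 18.6) in Trpm2, 4.05 (1.90 to 9.60) in Adora2a and 0.339 (0.111 to 0.882) in Cldn15.

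Among 6 tested TRPM channels and taste transduction genes none fell and 1 rose, Trpm6, an epithelial magnesium channel (edgeR log2 fold change 0.40 with SE 0.13, adjusted p = 0.018). That call ended with the length offset, on the TPM scale, with DESeq2 and without M-EV replicate 1, M-EV replicate 2 or M-LPS-EV replicate 2. Trpm4, the closest relative of Trpm5, had 772 counts with M-EV and 720 with M-LPS-EV and was not called (edgeR adjusted p = 0.99). Of the candidate receptor of Msmp, Ccr2, 1 count was found in each group. Of 6 tested claudins and tight junction proteins none fell. Cldn16, the partner of Cldn19 in the kidney, had no count in either group, and Cldn14 had 1 and 2. In the Crumbs and apical polarity list 4 of 10 tested genes fell and 1 rose. The scaffolds Patj (-0.19) and Mpp5 (-0.16) and the kinase Prkci (-0.14) fell slightly, calls which for Patj and Mpp5 ended with the length offset and on the TPM scale. Lin7a had -0.87 (SE 0.27, adjusted p = 0.015), a call that ended without M-EV replicate 2 or M-LPS-EV replicate 2 and with the length offset. Pard6g rose by 0.32 (SE 0.10, edgeR adjusted p = 0.013), which also ended under both length-based settings and when M-EV replicate 2 or M-LPS-EV replicate 1 was left out. Crb1 and Crb3 had 1 count in each group, so Crb2 was the Crumbs gene with counts above that limit.

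**Figure D4:**
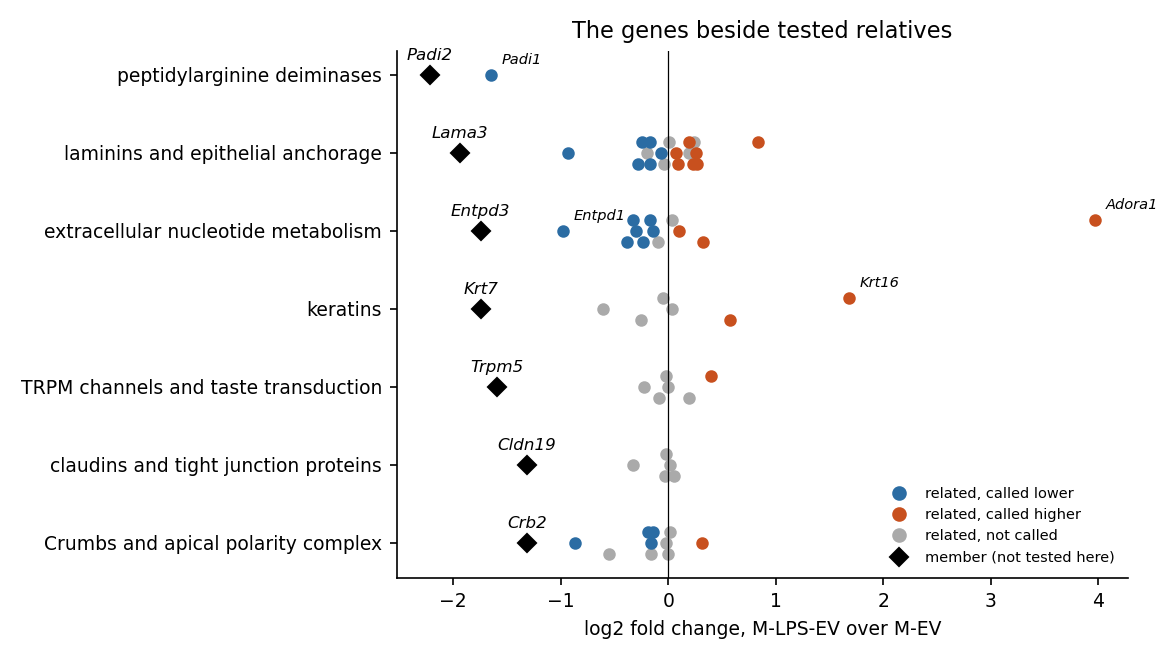
Log2 fold change of M-LPS-EV over M-EV for the tested relatives reported here of 7 of the genes, by list (circles, coloured by call), beside the gene itself (black diamonds, not tested). Padi1, at -1.65, is the lowest of the relatives drawn, and Adora1, at 3.97, lies farthest to the right.

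Neighbours on the chromosome changed in both directions. Of 36 neighbours, the 2 nearest tested genes on each side of each gene, 9 were lower, 4 higher and 23 not called. The share called was 36.1%, beside 31.6% of all tested genes, and the share called lower 25%, beside 15.2%. Their median log2 fold change was 0.01. Of the 9 genes 3 are on chromosome 4 (Padi2, Msmp and Cldn19), far apart from each other. Padi1 lies 60566 bases from Padi2, and was the only neighbour with a log2 fold change as low as that of Zfp648. On its other side Sdhb, a subunit of succinate dehydrogenase, fell by 0.24 on the log2 scale (SE 0.04).

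Krt87, a hair keratin gene 725 bases from Krt7, fell from 4.95 ± 0.829 to 3.02 ± 0.594 CPM (edgeR log2 fold change -0.71 with SE 0.17, adjusted p = 0.0017). Trpm5 lies in an imprinted region. Cdkn1c, 363697 bases from Trpm5, is a cell cycle inhibitor expressed from the maternal copy. It fell from 335 ± 8.66 to 183 ± 8.40 CPM (-0.87, SE 0.03, edgeR adjusted p = 2.1e-18). The noncoding Kcnq1ot1, expressed from the paternal copy of the region, fell by 0.41 on the log2 scale (SE 0.06), and was not called on the TPM scale (limma adjusted p = 0.35). In the same region Cd81, a tetraspanin, rose by 0.16 (SE 0.03). The other falls were small. P3h1, a collagen prolyl hydroxylase 6439 bases from Cldn19, had -0.36 (SE 0.02), and Osbpl1a, 172301 bases from Lama3, had -0.33 (SE 0.04). Glul, 291464 bases from Zfp648, had -0.26 (edgeR adjusted p = 0.0497), a call that ended under 8 of 15 alternatives (adjusted p from 0.027 to 0.59). Ier5, 890672 bases from Zfp648, rose by 0.36 (SE 0.05) and Eif1b, 44488 bases from Entpd3, by 0.18 (SE 0.05). AU022252 beside Cldn19 had 0.14 (SE 0.05, edgeR adjusted p = 0.026), which turned to -0.10 with the length offset and -0.11 on the TPM scale.

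**Figure D5:**
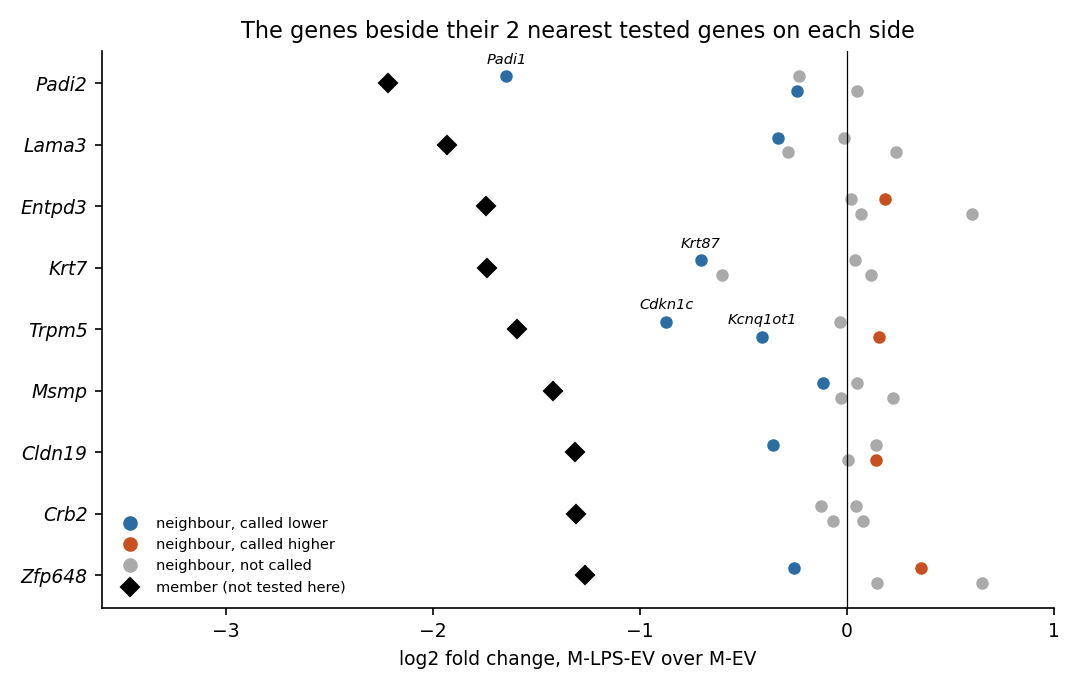
Log2 fold change of M-LPS-EV over M-EV for the 2 nearest tested genes on each side of each of the 9 genes (circles, coloured by call), beside the gene itself (black diamonds, not tested). Padi1, Cdkn1c and Krt87, at -1.65, -0.87 and -0.71, are the lowest called neighbours, and the remaining called ones lie between -0.41 and 0.36.

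The 5 other genes whose profile over the 6 libraries was most like the median profile of the 9, by Euclidean distance of CPM over each gene's mean, were Sfrp5 (0.128), Sfrp4 (0.251), Ihh (0.265), Tspan32 (0.282) and C1qtnf3 (0.285). The 9 genes themselves lay between 0.060 (Trpm5) and 0.521 (Lama3) from that profile. Sfrp5, a secreted inhibitor of Wnt signals, had 11.8, 12.1 and 12.1 CPM with M-EV and 4.27, 3.89 and 4.90 with M-LPS-EV. C1qtnf3, a secreted protein of cartilage and fat, had the same shape at a higher level, at 130, 132 and 129 CPM with M-EV and 57.0, 54.2 and 58.7 with M-LPS-EV. With 3 libraries per group such a likeness mostly restates the ratio.

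The markers of cell types put these values in context. The 8 chondrocyte markers summed to between 117586 and 118692 CPM with M-EV and between 99026 and 101273 with M-LPS-EV. Of the 8, 7 fell, beside 15.2% of all tested genes. Col2a1 alone made up 86151.5 ± 650.4 CPM of the sum with M-EV and 76338.1 ± 999.8 with M-LPS-EV. Sox9 was not called (edgeR log2 fold change 0.06 with SE 0.03, adjusted p = 0.097). Of 14 epithelial markers 5 could be tested, of which 1 rose, the epithelial transcription factor Elf3, and none fell. The sum of the 14 was 5.53 to 6.16 CPM in the M-EV libraries and 6.17 to 7.45 in the M-LPS-EV libraries, and Elf3 made up 0.727 ± 0.0182 and 2.09 ± 0.245 CPM of it. Without Elf3, a sum chosen after seeing the data, the other 13 markers summed to 4.81 to 5.45 CPM in the M-EV libraries and 4.27 to 5.39 in the M-LPS-EV libraries. The mean was 5.22 ± 0.362 against 4.66 ± 0.634 CPM (SD, n = 3), and the ranges overlapped. Of the untested markers, Ovol1 (2 counts with M-EV and 26 with M-LPS-EV), Cdh1 (15 and 19) and Cldn7 (5 and 7) had more counts with M-LPS-EV. Krt8 (26 and 15), Esrp1 (17 and 10), Esrp2 (35 and 30), Rab25 (9 and 1) and Grhl2 (1 and 0) had fewer, and Cldn4 had no count. The 4 tested markers other than Elf3 all had log2 fold changes below 0, and none was called: Krt18 had -0.60 (edgeR adjusted p = 0.11), Epcam -0.25, Krt19 -0.25 and St14 -0.06. The 10 macrophage markers summed to 24.2 to 26.4 CPM in the M-EV libraries and 33.0 to 37.9 in the M-LPS-EV libraries. Of 8 tested, 4 rose (Lyz2, Adgre1, Cd14 and Itgam), beside 16.4% of all tested genes. Lyz2 alone made up 15.5 ± 0.823 CPM of the sum with M-EV and 22.2 ± 2.06 with M-LPS-EV. Cd68, Csf1r, Tyrobp and Mrc1 were not called. The untested Ptprc had 23 counts with M-EV and 20 with M-LPS-EV, and Fcer1g had 27 and 27. Of 7 tested markers of synovial lining and fibroblasts 3 fell and 2 rose, and of 4 tested neural and glial markers 1 fell and 1 rose. None of 5 tested muscle markers was called, nor was the 1 tested endothelial marker. The part of any of these cell types in the values of the 9 genes was not tested.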

How the data were processed

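The 6 stranded mRNA libraries comprised 3 M-EV and 3 M-LPS-EV, grouped by their titles. STAR, RSEM and DESeq2 were used with mm10, per the submitters' processing notes; the sources used here do not give their versions, settings or strand. For each transcript the authors deposited an RSEM expected count, an estimate that shares reads between transcripts, beside a TPM value scaled by effective length and a percent of the gene's abundance (IsoPct), per the file headers. Coordinates and transcript types came from GENCODE M21 (GRCm38, mm10), which held 99.1% of the transcripts, 99.7% of them at the same length.

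Expected counts and TPM were summed per gene. Counts were rounded, filtered with edgeR's filterByExpr (minimum count 10, total 15), scaled by TMM and tested with edgeR 4.0.16 (glmQLFit, glmQLFTest, group only, R 4.3.3), two-sided, with Benjamini-Hochberg adjustment over all 14604 tested genes and a threshold of 0.05. A gene was called when it passed. CPM use TMM-scaled library sizes, and fold changes set M-LPS-EV against M-EV. Library totals of 20239626 to 25712667 leave few counts at 1 CPM, which limits the precision of genes this low. On simulated counts for this contrast (14263 genes in the step), 48 of 50 genes lowered by 2 and 43 of 46 lowered by 1 on the log2 scale were called, and 9 of 14067 unchanged ones. The changed genes were drawn from all levels, so these shares do not measure power for genes as low as the 9.

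The 9 genes, the lists of relatives and the cell type markers were chosen with earlier results of these data known. The naming rule took the 9 genes, up to 6 called genes with the smallest p from each list of relatives, 17 closest relatives whatever their values, called genes among the 2 nearest tested on each side, and the 5 most similar profiles. Other settings were scaling by RLE or by the upper quartile, testing without a count filter or with a mean count of 50 or more, an effective length offset, a replicate block, each library left out, DESeq2 1.42.0, limma-voom and limma-trend (limma 3.58.1) on log2(TPM + 1). Sequence of Lama3 was not used here, and values of some relatives that the rule named are not reported here.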

Additional observations from a re-analysis of the deposited data

How the results depend on the processing

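All 9 genes were lower with M-LPS-EV under every alternative that kept them (14 or 15 each). The alternatives reuse the libraries that chose the genes, so this direction was set by the choice and is no support. A mean count of at least 50 removed Lama3, Cldn19 and Crb2. The number of the 9 among the 15 lowest log2 fold changes was 5 with the effective length offset and 5 with limma-trend on log2(TPM + 1), 6 with a mean count of at least 50, 7 with limma-voom and 6 to 9 with a library left out, the lowest without M-LPS-EV replicate 2. Genes called over the whole table numbered 4614, and 2868 with the length offset and 2622 on the TPM scale. Relatives called were 18 lower and 15 higher, against 10 and 9 with the length offset and 9 and 8 on the TPM scale. Rgp1 turned to 0.0595 and 0.0449, and AU022252 to -0.1027 and -0.1077, under those same settings. Trpm4, not called, ranged from -0.0203 to 0.033 with a library left out. The causes were not tested. Same-numbered libraries did not deviate together (correlations 0.028, -0.044 and -0.019). With 3 libraries per group such a check cannot exclude pairing. With a replicate block 4519 genes, 18 lower and 14 higher relatives and 13 neighbours were called. Counts of 12 to 15 per library, as in Cldn19 and Crb2 with M-LPS-EV, leave wide counting intervals. Those intervals cover neither the spread between libraries nor the choice of the genes by a low ratio.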
